A study of Mus musculus with 6 samples.

Results

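The genes described here encode enzymes that add methyl groups to histones and to arginine residues of proteins, or remove them from histone lysines. They were chosen by symbol: rows of the count table beginning with Kdm, Kmt, Setd or Prmt and a number, and Ezh1, Ezh2, Nsd1 to Nsd3, Ehmt1, Ehmt2 and Dot1l, without antisense (os), pseudogene (-ps) and Rik symbols. The rule found 49 of the 49492 genes in the table, and 46 of them had enough counts to test. RNA came from RAW264.7, a mouse macrophage-like line, in 6 libraries: 3 transfected for 48 h with 50 nM of an siRNA against Ep300 (Ep300 siRNA) and 3 with 50 nM of an siRNA labelled nc (control siRNA). The target's product, p300, acetylates lysines of histones and other proteins as a coactivator of transcription, and the comparison asked how its silencing changes macrophage gene expression. The genotype labels read Ep300 silenced and WT, neither group carries a labelled genetic change, and the siRNA left part of the Ep300 transcript in place.

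Lysine methylation of histone tails marks chromatin states. Methylated H3K4 is found at promoters and enhancers, H3K36 and H3K79 methylation along transcribed genes, and H3K27, H3K9 and H4K20 methylation at repressed or compacted chromatin. SET-domain enzymes and Dot1l write these marks, while the amine oxidases Kdm1a and Kdm1b and the JmjC-domain KDM proteins erase them. The PRMT family methylates arginine in histones and in many RNA-binding proteins. In macrophages, Kdm6b is known as an inflammation-inducible H3K27 demethylase.

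The count table gave 29993567 to 45377510 counts per library, of which 103475 to 153504 fell on the tested enzymes. Whether libraries of the same group are independent cultures is not in the labels, and p-values therefore measure the spread between these samples, possibly a technical one. Ep300 was at 51.1, 59.0 and 54.9 CPM (counts per 1000000, on TMM-scaled library sizes) after Ep300 siRNA and at 107, 115 and 118 CPM after control siRNA (log2 fold change −1.04 ± 0.07, SE). All 8 macrophage markers examined, among them Csf1r, Cd68 and Lyz2, were present (62.2 to 8719 CPM in single libraries), and all 15 markers of other cell types were below 0.42 CPM in every library. Summed over those 15 markers, levels were 1.05 to 1.33 CPM after Ep300 siRNA and 1.58 to 1.70 CPM after control siRNA. Of the macrophage markers 1 passed the test, Fcgr3 (log2 fold change 0.42). Csf1r and Adgre1 did not pass (edgeR adjusted p = 0.0666 and 0.0855), at 629 to 710 and 62.2 to 68.2 CPM after Ep300 siRNA and 747 to 792 and 70.9 to 84.7 CPM after control siRNA. The part of these differences in the results was not tested. The first principal component over the 15741 genes tested held 32.9% of the variance. On it Ep300 siRNA replicates 1, 2 and 3 scored −29.7, −13.8 and −8.88, and the controls 16.8 to 18.8, so that Ep300 siRNA replicate 1 stood apart from its group. In these bulk libraries, fewer transcripts per cell and fewer cells expressing a gene cannot be told apart.

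Of the 46 enzymes tested, 3 rose after Ep300 siRNA (Kdm5b, Kdm2a and Setd3), 2 fell (Prmt7 and Kmt5a) and 41 did not pass (edgeR quasi-likelihood test, adjusted p under 0.05 over all 15741 genes tested). That is 10.9% of the enzymes, where 6.78% of all genes tested were called, 2.76% as higher and 4.02% as lower. Without scaling factors, on library sizes alone, 3 enzymes passed (Kdm5b, Kmt5a and Prmt7), and over all genes 316 rose and 788 fell, against 435 and 633 with TMM scaling. The changes were small: every log2 fold change lay between −0.32 and 0.39. The median absolute log2 fold change was 0.13 for the enzymes and 0.14 for all genes. Their median SE was 0.077 and 0.10, so the shares set side by side here and below are not for genes of equal precision. Each of the 5 calls was lost when some single library was left out, and none of the 5 passed without Ep300 siRNA replicate 2, where 8 enzymes had an unadjusted edgeR p under 0.05. No other tool was run on 5 libraries. DESeq2 and limma-voom on all 6 libraries called the same 5 enzymes.

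**Figure D1:**
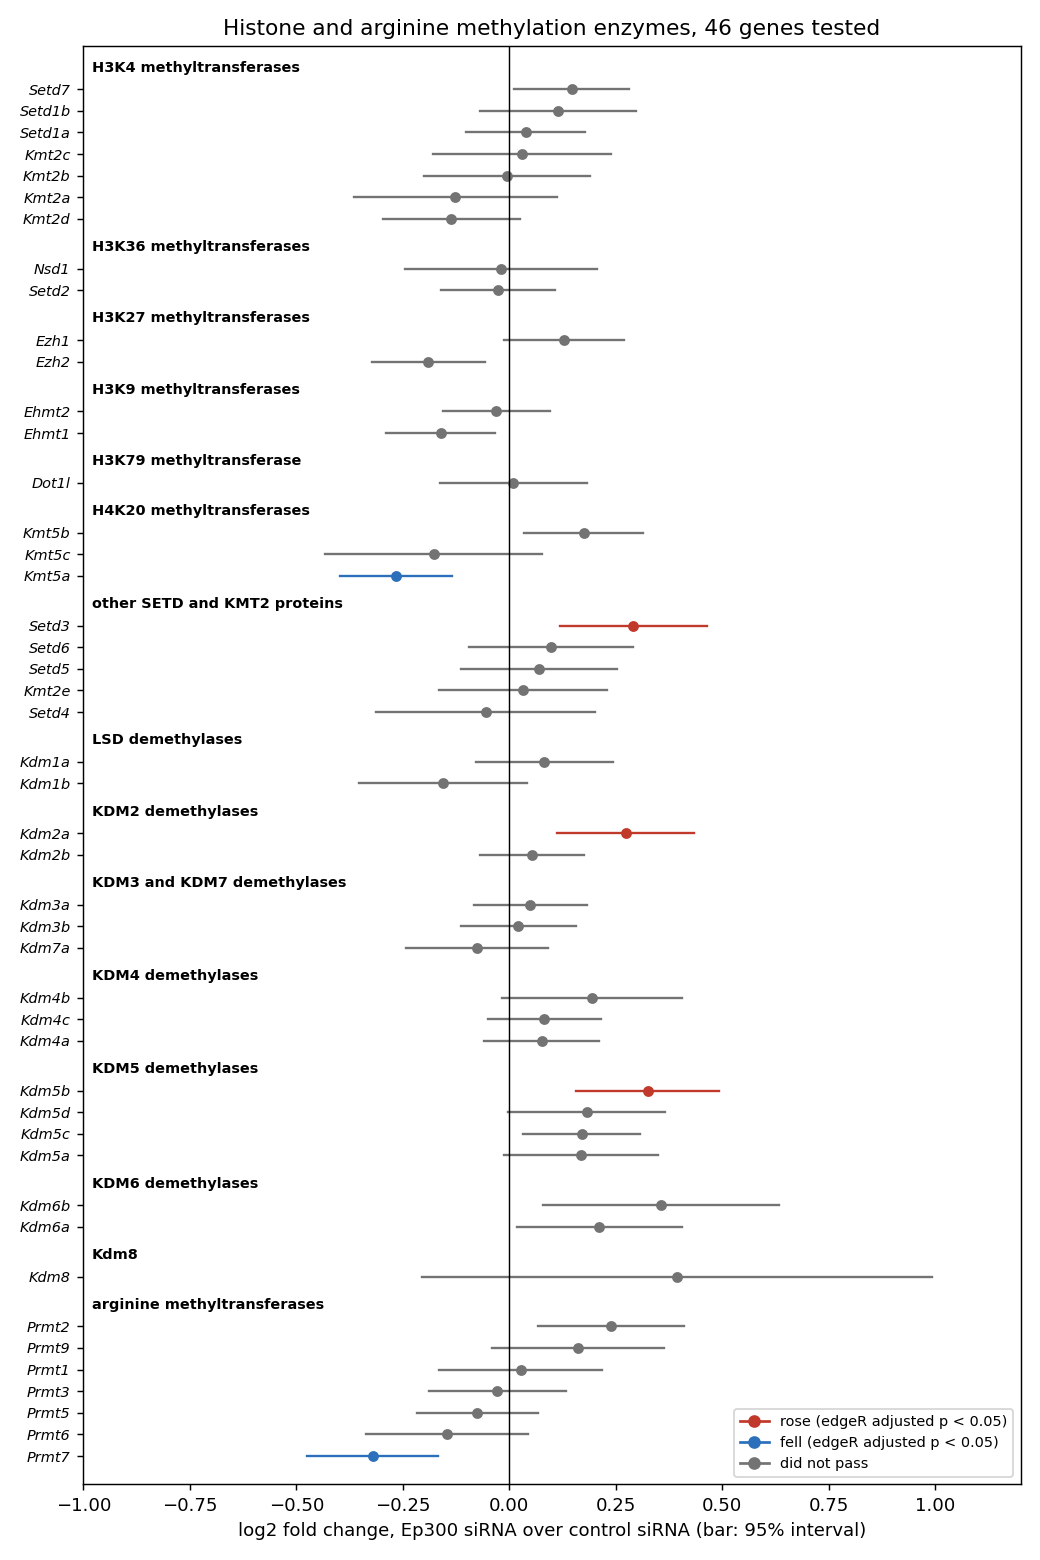
Log2 fold change of each of the 46 tested enzymes, Ep300 siRNA over control siRNA, grouped by the mark they act on or by enzyme family. Points are edgeR estimates and bars their 95% intervals; red marks the 3 enzymes that rose, blue the 2 that fell and grey the 41 that did not pass.

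For 4 of the 5 enzymes that passed, RefSeq (GRCm38.p6) gives a promoter, and the 250 bases before its first listed start are printed here 5′ to 3′ because these are the members whose transcripts moved. Kdm2a has no entry there. The RefSeq starts differ from the gene bounds of GENCODE M21 given below, by which the windows of Kdm5b, Setd3 and Prmt7 run into the gene. Prmt7 starts at 106210936 in GENCODE M21, and its marked GC box and CRE half-site lie past that start, inside the gene. Capitals mark CCAAT boxes (CCAAT or ATTGG), GC boxes (GGGCGG or CCGCCC) and half-sites of the cyclic-AMP response element (TGACG or CGTCA), the element bound by CREB, a factor that recruits p300. Overlapping matches were counted separately.

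Kdm5b, chr1:134559928-134560177, plus strand: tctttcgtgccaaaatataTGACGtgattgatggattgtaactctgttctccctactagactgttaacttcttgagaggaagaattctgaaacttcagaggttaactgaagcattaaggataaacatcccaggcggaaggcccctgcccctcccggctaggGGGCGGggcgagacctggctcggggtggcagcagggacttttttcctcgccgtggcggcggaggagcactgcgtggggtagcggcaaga

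Setd3, chr12:108179285-108179534, minus strand: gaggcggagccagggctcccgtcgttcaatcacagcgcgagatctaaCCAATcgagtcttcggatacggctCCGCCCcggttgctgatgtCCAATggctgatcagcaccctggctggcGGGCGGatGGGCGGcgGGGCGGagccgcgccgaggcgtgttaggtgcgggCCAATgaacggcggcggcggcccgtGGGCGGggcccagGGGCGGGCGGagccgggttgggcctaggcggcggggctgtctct

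Prmt7, chr8:106210804-106211053, plus strand: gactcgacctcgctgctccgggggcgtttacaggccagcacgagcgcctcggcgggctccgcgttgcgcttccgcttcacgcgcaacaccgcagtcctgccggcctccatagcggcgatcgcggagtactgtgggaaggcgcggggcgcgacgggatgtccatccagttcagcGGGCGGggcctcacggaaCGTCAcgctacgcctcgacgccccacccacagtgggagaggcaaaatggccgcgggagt

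Kmt5a, chr5:124439680-124439929, plus strand: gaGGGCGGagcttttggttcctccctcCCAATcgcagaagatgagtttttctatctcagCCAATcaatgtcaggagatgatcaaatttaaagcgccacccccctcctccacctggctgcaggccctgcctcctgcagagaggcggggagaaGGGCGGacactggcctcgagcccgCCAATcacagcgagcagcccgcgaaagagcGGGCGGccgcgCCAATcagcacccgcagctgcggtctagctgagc

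The windows of Kdm5b and Prmt7, which moved in opposite directions, each held 1 CRE half-site and 1 GC box and no CCAAT box. Those of Setd3 and Kmt5a, which also moved in opposite directions, held 3 and 4 CCAAT boxes and 7 and 3 GC boxes, with no CRE half-site. Of the first windows of 27025 genes, tested here or not, 34.5% held a CCAAT box, 32.9% a GC box and 17.9% a CRE half-site. Of 37 tested enzymes with an entry, 37.8% held a CCAAT box, 56.8% a GC box and 18.9% a CRE half-site. These matches describe letters only.

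Kdm5b, which removes methyl groups from H3K4, had the smallest p of the demethylases (GRCm38 chromosome 1, 134560171 to 134635285, plus strand). Kdm5b had 48.5, 47.7 and 40.5 CPM after Ep300 siRNA and 37.4, 35.0 and 36.7 CPM after control siRNA. The groups did not overlap, and replicate 3 was the lowest of the Ep300 siRNA libraries. Kdm5b rose 1.25-fold (45.6 ± 4.39 against 36.4 ± 1.23 CPM, SD, n = 3 each; log2 fold change 0.32 ± 0.08, SE, 95% interval 0.16 to 0.49, edgeR adjusted p = 0.0273). With 1 library left out its log2 fold change was 0.29 to 0.40, and it passed in 2 of 6 such fits (edgeR adjusted p up to 0.107).

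None of the other KDM5 enzymes passed, and all 3 had positive log2 fold changes. Kdm5c, the X-linked member, had 65.1, 63.5 and 60.9 CPM after Ep300 siRNA and 53.1, 56.2 and 59.1 CPM after control siRNA (log2 fold change 0.17 ± 0.06, SE, edgeR adjusted p = 0.132). Its groups lay apart, as did those of the Y-linked Kdm5d, which had 48.0, 58.3 and 48.7 CPM after Ep300 siRNA and 47.2, 41.9 and 47.6 CPM after control siRNA (edgeR adjusted p = 0.235). Kdm5a, the most abundant of the family per kilobase of exon, overlapped between the groups, at 168 ± 9.33 CPM after Ep300 siRNA and 150 ± 16.6 CPM after control siRNA (SD, n = 3 each).

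Kdm2a, a CXXC-domain protein that demethylates H3K36 and binds unmethylated CpG islands, lies on chromosome 19 (4314419 to 4398285, minus strand). It had 116, 118 and 118 CPM after Ep300 siRNA and 86.6, 106 and 99.5 CPM after control siRNA. The Ep300 siRNA libraries were close to each other and all above the controls, of which replicate 1 was the lowest. Kdm2a rose 1.21-fold (log2 fold change 0.27 ± 0.07, SE, 95% interval 0.11 to 0.43, edgeR adjusted p = 0.0473). The log2 fold change was 0.20 without control siRNA replicate 1, the call held in 1 of 6 fits with a library left out (adjusted p up to 0.125), and it was lost on library sizes alone (adjusted p = 0.0646). Its paralog Kdm2b had 61.0 to 64.1 CPM after Ep300 siRNA and 59.2 to 60.1 CPM after control siRNA (log2 fold change 0.05 ± 0.06, SE, edgeR adjusted p = 0.632).

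The H3K27 demethylases Kdm6a and Kdm6b were both higher in every Ep300 siRNA library than in any control, and neither passed. Kdm6b, at a low level, had 6.04, 7.79 and 7.34 CPM after Ep300 siRNA and 5.90, 5.30 and 5.36 CPM after control siRNA (log2 fold change 0.36 ± 0.13, SE, edgeR adjusted p = 0.119). Ep300 siRNA replicate 1 lay close to the controls, and the log2 fold change was 0.28 to 0.46 with 1 library left out. Kdm6a, an X-linked enzyme that is also a subunit of H3K4 methyltransferase complexes, had 17.5, 17.5 and 17.2 CPM after Ep300 siRNA and 13.4, 16.0 and 15.8 CPM after control siRNA (edgeR adjusted p = 0.184). Kdm6bos, an antisense gene that shares 4.11% of the exon bases of Kdm6b, was at 0.84 ± 0.242 CPM after Ep300 siRNA and 0.798 ± 0.0392 CPM after control siRNA (SD, n = 3 each).

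Among the remaining demethylases no enzyme had an unadjusted edgeR p under 0.05. The H3K9 and H3K36 demethylases Kdm4a, Kdm4b and Kdm4c had log2 fold changes of 0.08, 0.19 and 0.08. Of these Kdm4b had 13.5, 13.5 and 11.6 CPM after Ep300 siRNA and 11.1, 10.7 and 11.99 CPM after control siRNA, with overlap in replicate 3. The H3K9 demethylases Kdm3a and Kdm3b were at log2 fold changes of 0.05 and 0.02. Kdm7a, which acts on H3K9 and H3K27, had 76.0, 80.2 and 70.1 CPM after Ep300 siRNA and 72.0, 84.8 and 81.8 CPM after control siRNA. For Kdm3b, an antisense lincRNA, Gm26538, covers 24.6% of its exon bases, and whether reads were assigned by strand is not known from the sources used here. The flavin-dependent H3K4 demethylases Kdm1a and Kdm1b had log2 fold changes of 0.08 ± 0.07 and −0.16 ± 0.09 (SE). Kdm1b had 21.1, 18.5 and 18.5 CPM after Ep300 siRNA and 22.6, 22.7 and 19.2 CPM after control siRNA, an overlapping pair of groups. Kdm8, the lowest of the tested enzymes per kilobase, varied most: 1.88, 1.85 and 2.19 CPM after Ep300 siRNA and 1.60, 0.864 and 2.02 CPM after control siRNA.

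Over the 17 tested KDM genes, 2 (11.8%) rose and none fell by edgeR, where 6.78% of all genes were called and 2.76% as higher. An unadjusted p under 0.05 was found for 5 (29.4%), against 22.2% of all genes, and 8 lay apart between the groups. All 8 were higher after Ep300 siRNA, which is 47.1% of the KDM genes, where 13.0% of all genes tested had all 3 Ep300 siRNA libraries above the controls. Lying apart was judged on TMM-scaled CPM only and was not counted on library sizes alone. Some margins were narrow. The lowest Ep300 siRNA and highest control siRNA libraries had 61.0 and 60.1 CPM for Kdm2b, 36.9 and 36.8 for Kdm4c, and 48.0 and 47.6 for Kdm5d. DESeq2 and limma-voom likewise called no KDM gene as lower. Log2 fold changes were positive for 15 of the 17, with a median of 0.17, against −0.004 for all genes. Positive values numbered 14 of 17 on library sizes alone, without Ep300 siRNA replicate 2 and without control siRNA replicate 1, and the median was 0.087 without Ep300 siRNA replicate 2. These counts describe the group and are not a test of it. They hold for symbols beginning with Kdm. Of 13 tested demethylases and related proteins outside the symbol rule, listed further below, 7 had positive and 6 negative log2 fold changes (median 0.02).

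**Figure D2:**
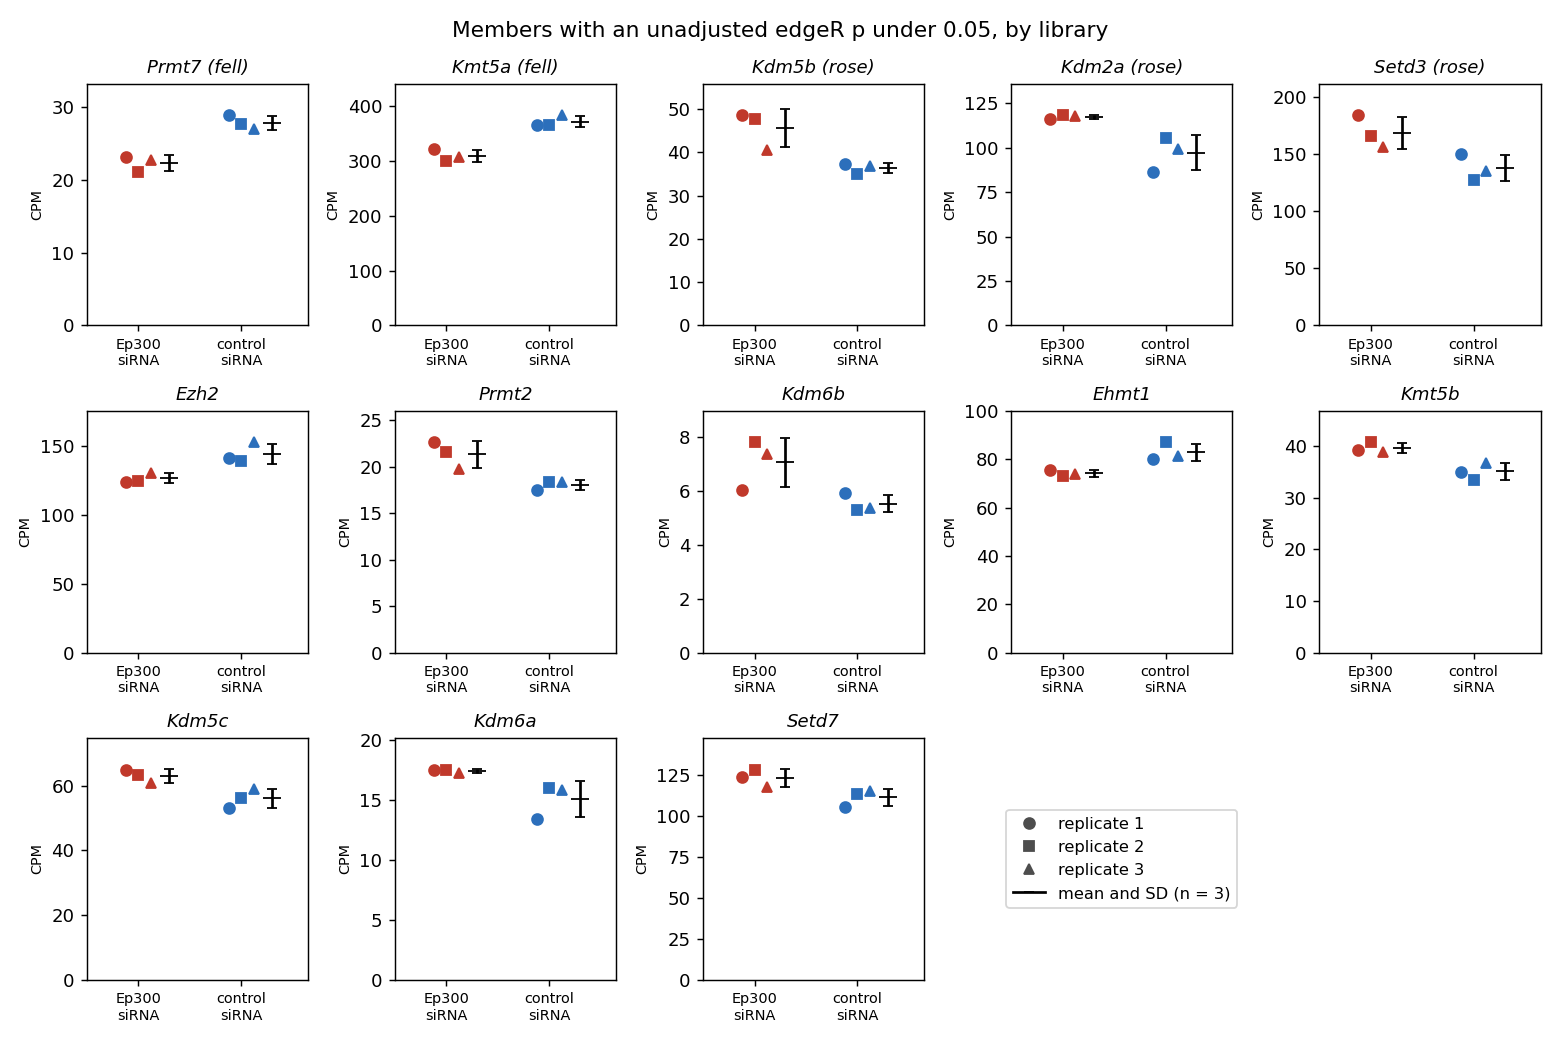
Level in each library (CPM, linear axes from 0) of the 13 enzymes with an unadjusted edgeR p under 0.05, Ep300 siRNA left and control siRNA right. Symbols mark the replicate number and black bars the mean and SD of 3 libraries; the 5 enzymes marked as rose or fell passed the adjusted test, and log2 fold changes among the 13 run from −0.32 to 0.36.

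Kmt5a, which writes the monomethyl mark on H4K20 and acts in the cell cycle, was the lysine methyltransferase that fell (chromosome 5, 124439930 to 124462308, plus strand). It had 321, 299 and 307 CPM after Ep300 siRNA and 365, 365 and 383 CPM after control siRNA, and the groups did not overlap. Kmt5a fell to 0.832 of control (log2 fold change −0.27 ± 0.06, SE, 95% interval −0.40 to −0.13, edgeR adjusted p = 0.0222). With 1 library left out the log2 fold change was −0.28 to −0.24, with the call held in 2 of 6 fits (adjusted p up to 0.096).

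Neither of the other H4K20 enzymes passed. Kmt5b, which adds further methyl groups to the same residue, had 39.2, 40.7 and 38.9 CPM after Ep300 siRNA and 35.1, 33.5 and 36.8 CPM after control siRNA. All 3 Ep300 siRNA libraries were above the controls, without passing (log2 fold change 0.17 ± 0.06, SE, edgeR adjusted p = 0.128). Kmt5c, its paralog, overlapped between the groups (15.8 ± 1.44 against 17.9 ± 2.79 CPM, SD, n = 3 each).

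The H3K27 methyltransferases are the alternative catalytic subunits of Polycomb repressive complex 2, of which Ezh2 is typical of dividing cells. Ezh2 had 124, 125 and 131 CPM after Ep300 siRNA and 141, 139 and 153 CPM after control siRNA. The groups lay apart, and Ezh2 did not pass (log2 fold change −0.19 ± 0.06, SE, edgeR adjusted p = 0.0875). An antisense lincRNA over 2.61% of its exon bases, Gm26625, was at 27.8 ± 1.50 CPM after Ep300 siRNA and 32.7 ± 1.86 CPM after control siRNA (SD, n = 3 each). Ezh1 had 39.7, 43.6 and 42.9 CPM after Ep300 siRNA and 37.2, 38.3 and 40.1 CPM after control siRNA (log2 fold change 0.13 ± 0.06, SE, edgeR adjusted p = 0.274), with groups that overlapped.

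None of the 7 H3K4 methyltransferases passed edgeR, DESeq2 or limma-voom, and 1 had an unadjusted edgeR p under 0.05. That was Setd7, a monomethyltransferase that also acts on non-histone proteins, with 123, 128 and 117 CPM after Ep300 siRNA and 105, 113 and 115 CPM after control siRNA (edgeR adjusted p = 0.189). Kmt2a, Kmt2b, Kmt2c and Kmt2d, the MLL enzymes, had log2 fold changes of −0.13, −0.01, 0.03 and −0.14, and all overlapped between the groups. Setd1a and Setd1b, which write trimethylated H3K4 at promoters, were at 0.04 and 0.11. For Setd1a, 51.8% of its exon bases also belong to Gm49388, a gene on the same strand in GENCODE M21. The count table has no row under that symbol.

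Writers of the remaining lysine marks did not pass. For H3K9, Ehmt1 had 75.7, 73.0 and 74.0 CPM after Ep300 siRNA and 80.3, 87.1 and 81.6 CPM after control siRNA, all 3 below the controls (log2 fold change −0.16 ± 0.06, SE, edgeR adjusted p = 0.127). Ehmt2, its more abundant partner, was at 149 ± 5.94 CPM after Ep300 siRNA and 152 ± 1.23 CPM after control siRNA (SD, n = 3 each). The H3K36 enzymes Setd2, which trimethylates H3K36 with elongating RNA polymerase II, and Nsd1 were at log2 fold changes of −0.03 and −0.02. Setd2 had 175, 191 and 175 CPM after Ep300 siRNA and 178, 188 and 185 CPM after control siRNA. The H3K79 enzyme Dot1l had 132, 141 and 117 CPM after Ep300 siRNA and 118, 134 and 135 CPM after control siRNA, and for both enzymes the groups were intermixed. Nsd2 and Nsd3 stand in the table under older symbols that the rule does not take, and were looked up after the rule was applied. Whsc1 (Nsd2) had 166, 170 and 174 CPM after Ep300 siRNA and 188, 199 and 209 CPM after control siRNA (log2 fold change −0.22 ± 0.06, SE, edgeR adjusted p = 0.0503), and it passed in 8 of 15 alternatives, DESeq2 and limma-voom among them (adjusted p 0.0216 to 0.188). Whsc1l1 (Nsd3) was at −0.10 ± 0.07 (SE, edgeR adjusted p = 0.433).

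Setd3, an enzyme that methylates a histidine of actin, was the third member that rose (chromosome 12, 108106431 to 108179314, minus strand). It had 184, 166 and 156 CPM after Ep300 siRNA and 150, 127 and 135 CPM after control siRNA. The groups did not overlap, with replicate 1 the highest in each. Setd3 rose 1.22-fold (log2 fold change 0.29 ± 0.08, SE, 95% interval 0.12 to 0.46, edgeR adjusted p = 0.049). The call was lost on library sizes alone (edgeR adjusted p = 0.079) and in 5 of 6 fits with a library left out (log2 fold change 0.23 to 0.36, adjusted p up to 0.16). Of the 50-base words of Setd3, 16.4% occur in other genes, first among them the processed pseudogene Gm14026, which was counted at 0.756 to 1.50 CPM over all libraries. Setd5, Setd6, Setd4 and Kmt2e, a MLL-family protein without established methyltransferase activity, had log2 fold changes of 0.07, 0.10, −0.06 and 0.03.

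Among the arginine methyltransferases Prmt7, the family's monomethylating enzyme, fell (chromosome 8, 106210936 to 106252794, plus strand). Prmt7 had 23.2, 21.1 and 22.8 CPM after Ep300 siRNA and 28.9, 27.7 and 26.98 CPM after control siRNA. Every Ep300 siRNA library was below every control, and the level fell to 0.801 of control (log2 fold change −0.32 ± 0.07, SE, 95% interval −0.47 to −0.17, edgeR adjusted p = 0.0197). The call held in 3 of 6 fits with a library left out (log2 fold change −0.34 to −0.28, adjusted p up to 0.0898).

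Prmt2 had 22.6, 21.6 and 19.7 CPM after Ep300 siRNA and 17.5, 18.3 and 18.4 CPM after control siRNA, apart but not past the test (log2 fold change 0.24 ± 0.08, SE, edgeR adjusted p = 0.0939). Prmt1, which makes most asymmetric dimethylarginine, and Prmt5, the main symmetric enzyme, were at 0.03 ± 0.09 and −0.07 ± 0.06 (SE). The ribosomal protein methyltransferase Prmt3 was at −0.03, the splicing-factor methyltransferase Prmt9 at 0.16 and the H3R2 methyltransferase Prmt6 at −0.15. Prmt6 lay apart between the groups (11.2 to 12.8 CPM after Ep300 siRNA and 13.4 to 13.7 CPM after control siRNA, edgeR adjusted p = 0.362). An antisense gene covers 23.4% of its exon bases. Prmt9 had 25.6, 24.2 and 23.9 CPM after Ep300 siRNA and 20.5, 25.3 and 20.2 CPM after control siRNA, of which control siRNA replicate 2 lay among the Ep300 siRNA libraries.

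Over the tested enzymes, 13 (28.3%) had an unadjusted edgeR p under 0.05, where 22.2% of all genes tested did, and 17 (37%) lay apart between the groups, where 27.5% did. Of those 17, 12 were higher and 5 lower after Ep300 siRNA, where 13.0% of all genes were apart and higher and 14.4% apart and lower. Of the 17 lysine methyltransferases grouped above by histone mark, 1 (5.88%) fell and none rose, where 4.02% of all genes fell and 6.78% were called. Their log2 fold changes were positive for 7 and negative for 10 (median −0.02). Setd3, Setd4, Setd5, Setd6 and Kmt2e were counted apart from these. Of those 5, 1 (20%) rose and none fell, where 2.76% of all genes rose, with 4 positive and 1 negative (median 0.07). Of the 7 arginine methyltransferases 1 (14.3%) fell and none rose, with 3 positive and 4 negative (median −0.03). For 39 of the 41 enzymes that did not pass, the 95% interval lay within a 1.5-fold change either way. The exceptions were Kdm6b and Kdm8. The 3 members that were not tested were Prmt8, a brain-enriched enzyme (0 to 8 counts per library), Kdm4d (0 to 4 counts) and the pseudogene Kdm4dl (0 counts in every library).

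**Figure D3:**
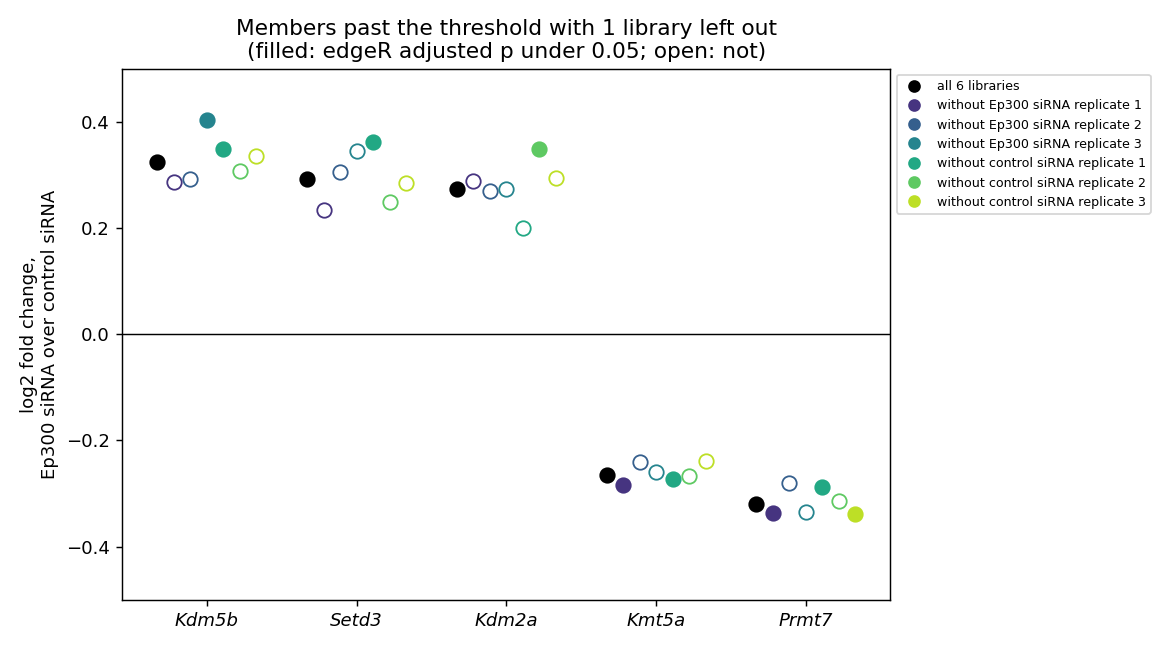
Log2 fold change, Ep300 siRNA over control siRNA, of the 5 enzymes that passed, with all 6 libraries (black) and with each library left out in turn (colours). Filled points had an edgeR adjusted p under 0.05; signs held in every fit, and without Ep300 siRNA replicate 2 no point is filled.

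Levels between enzymes were set side by side as CPM per kilobase of exon, the union of exons in GENCODE M21. Kmt5a was highest, at 56.4 to 72.2 CPM per kilobase over the 6 libraries, and its range did not touch that of the next. Ehmt2 (26.0 to 28.1) and Setd3 (21.1 to 30.4) followed and overlapped each other. Setd3 also overlapped Ezh2 (18.6 to 22.9), and Ezh2 overlapped Setd1a (17.8 to 19.98). At the low end stood Kdm8 (0.362 to 0.916 CPM per kilobase), Kdm6b (0.762 to 1.12) and Setd4 (0.939 to 1.10). Kdm6b overlapped both, and Kdm8 lay below Setd4 in every library. Prmt5 was the most abundant arginine methyltransferase, at 13.6 to 15.5 CPM per kilobase, above Prmt1 at 8.39 to 10.5. The order depends on the length used. Per kilobase of the longest transcript Kmt5a was again first, Setd3 (50.1) and Ezh2 (48.7) stood above Ehmt2 (37.4), Setd5 ranked 5 in place of 12, and 8 of the 10 highest enzymes were the same.

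**Figure D4:**
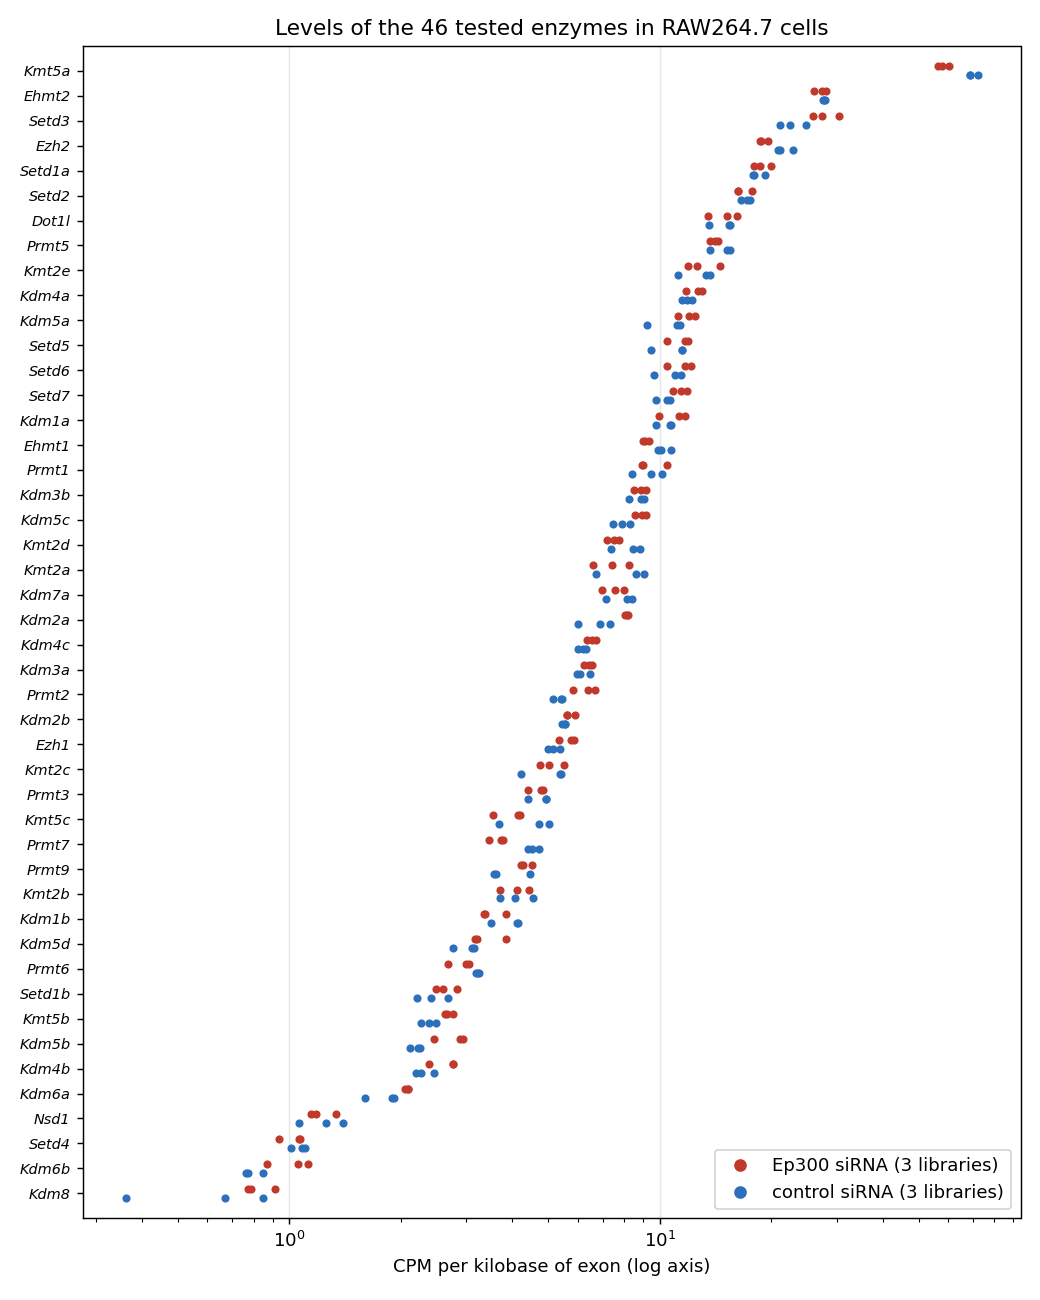
Level of each tested enzyme in every library, as CPM per kilobase of exon on a log axis, ordered by the mean over 6 libraries. Ep300 siRNA libraries are red and control siRNA libraries blue; Kmt5a stands highest and Kdm8 lowest, and in most rows the colours overlap.

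Summed per kilobase, the 3 H4K20 methyltransferases gave 64.8 ± 1.69 after Ep300 siRNA and 76.8 ± 2.56 after control siRNA (SD, n = 3 each), nearly all of it Kmt5a. The 4 KDM5 demethylases summed to 27.2, 28.1 and 25.4 CPM per kilobase after Ep300 siRNA and 22.0, 24.1 and 24.8 after control siRNA. The 7 H3K4 methyltransferases, which act on the same residue as KDM5, summed to 56.9 ± 3.31 after Ep300 siRNA and 56.5 ± 2.99 after control siRNA (SD, n = 3 each). The KDM5 sums lay narrowly apart between the groups (25.4 against 24.8), and those of the H3K4 methyltransferases overlapped. Lying apart was common among these sums. Those of other SETD and KMT2 proteins and of the KDM2, KDM4 and KDM6 demethylases were also apart and higher after Ep300 siRNA. Those of the H3K27, H3K9 and H4K20 methyltransferases were apart and lower. A shift between H3K4 writers and erasers was not tested.

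The balance between related enzymes within a library does not depend on library scaling, and 8 pairs were compared per kilobase. The ratio of Kmt5a to Kmt5b was 22.8, 20.4 and 21.9 after Ep300 siRNA and 29.0, 30.4 and 29.0 after control siRNA. Ezh2 over Ezh1 was 3.49, 3.19 and 3.40 after Ep300 siRNA and 4.23, 4.06 and 4.25 after control siRNA. In both pairs every Ep300 siRNA library was below every control. Kdm2a over Kdm2b (1.37 to 1.46 after Ep300 siRNA, 1.10 to 1.32 after control siRNA) and Ehmt2 over Ehmt1 (2.89 to 3.09 after Ep300 siRNA, 2.56 to 2.82 after control siRNA) were higher in all 3. Each of these 4 pairs gave p = 0.1 in a two-sided exact permutation test, the smallest that 3 against 3 libraries allow, and 0.2 adjusted over the 8 pairs. The pairs Kdm6a and Kdm6b, Kdm5c and Kdm5d, Kdm1a and Kdm1b, and Kdm5a and Kdm5b overlapped between the groups.

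**Figure D5:**
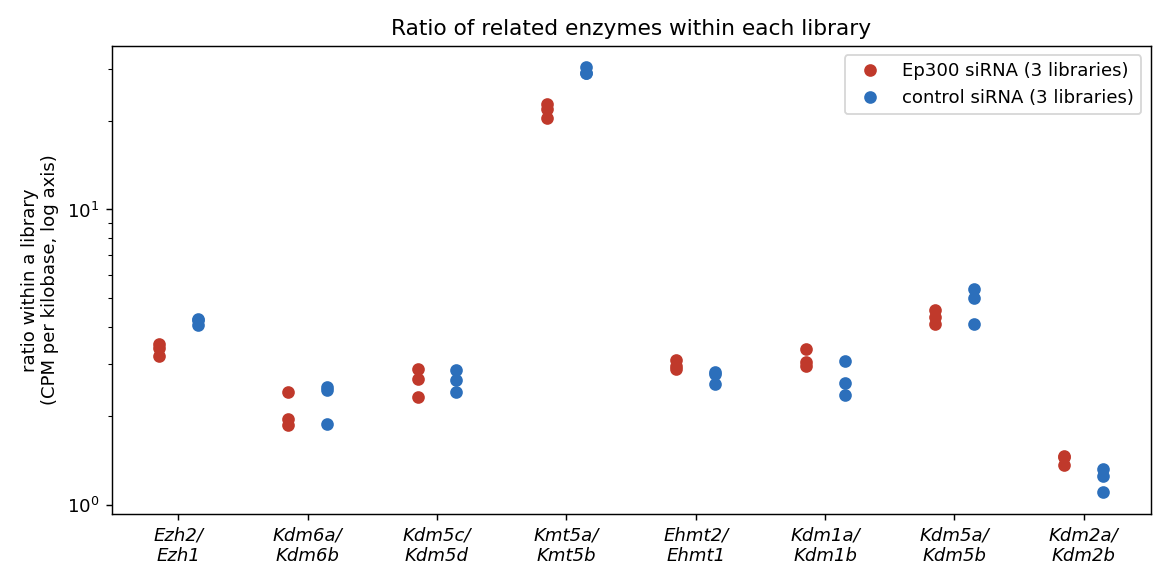
Ratio of 8 pairs of related enzymes within each library (CPM per kilobase, log axis), Ep300 siRNA in red left of control siRNA in blue. The groups lie apart for Ezh2 over Ezh1, Kmt5a over Kmt5b, Ehmt2 over Ehmt1 and Kdm2a over Kdm2b.

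Partners of these enzymes were examined as lists, against 6.78% of all genes called and 22.2% with an unadjusted p under 0.05. Of 13 subunits and partners of the COMPASS H3K4 methyltransferases none passed edgeR, DESeq2 or limma-voom, and 1 had an unadjusted edgeR p under 0.05, Dpy30 (log2 fold change −0.21 ± 0.08, SE). Of 11 Polycomb repressive complex 2 subunits 1 fell and none rose: Jarid2, a DNA-binding accessory subunit, had 31.2, 33.7 and 34.4 CPM after Ep300 siRNA and 38.6, 43.4 and 42.6 CPM after control siRNA (log2 fold change −0.32 ± 0.07, SE, edgeR adjusted p = 0.0183). DESeq2 called 2 of these subunits as lower. Of 13 genes of H3K9 methylation and reading 1 fell, Cbx5, which encodes heterochromatin protein HP1 alpha (151 ± 4.52 CPM after Ep300 siRNA and 181 ± 15.7 CPM after control siRNA, SD, n = 3 each, edgeR adjusted p = 0.0473). Among the lists with a call, 7.69% to 9.09% of tested genes were called.

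Of 11 partners of the arginine methyltransferases and readers of their marks 1 fell, Btg1, an anti-proliferative protein that binds Prmt1. Btg1 had 64.4, 61.3 and 69.7 CPM after Ep300 siRNA and 98.2, 93.2 and 95.1 CPM after control siRNA, far apart against the spread within groups (0.682 of control, log2 fold change −0.55 ± 0.06, SE, edgeR adjusted p = 0.000813). It passed in all 6 fits with a library left out. Of 13 tested genes of S-adenosylmethionine metabolism, the methyl donor pathway, 1 fell: Mtrr, which reactivates methionine synthase (23.0 ± 1.07 CPM after Ep300 siRNA and 28.7 ± 0.797 CPM after control siRNA, SD, n = 3 each, edgeR adjusted p = 0.017).

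Lysine and arginine methyltransferases outside the symbol rule were examined as a list of 16. Another list, of 14, held demethylases and related proteins, among them Hif1an and the Kdm1a partners Rcor1, Rcor2 and Rcor3. None of the 13 tested in each passed edgeR, DESeq2 or limma-voom, with 3 (23.1%) and 4 (30.8%) at an unadjusted edgeR p under 0.05. The smallest p values belonged to Smyd2, a lysine methyltransferase (0.22 ± 0.07, SE, edgeR adjusted p = 0.0737), and Rcor3, a partner of Kdm1a (−0.24 ± 0.09, SE, edgeR adjusted p = 0.117), as log2 fold changes. Smyd2 passed in 2 of 15 alternatives, with the replicate number as a block and without control siRNA replicate 1. Over the 15, edgeR fits with DESeq2 and limma-voom, its adjusted p was 0.0437 to 0.203. Rcor3 passed in 1, without control siRNA replicate 1 (0.0453 to 0.328). With a library left out, the call held in 2 of 6 fits for Jarid2, 1 of 6 for Cbx5 and 3 of 6 for Mtrr (edgeR adjusted p up to 0.0928, 0.176 and 0.0763), and that of Cbx5 was also lost under RLE scaling (edgeR adjusted p = 0.0518). Median log2 fold changes of the 7 partner lists ran from −0.05 to 0.02, against −0.004 for all genes. Listed genes with too few counts to test were Smyd1, Mecom, Prdm16, Hr, Mat1a, Nnmt and Gnmt.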

How the data were processed

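Stranded mRNA libraries were made from 2 µg of total RNA extracted with TRIzol, per the labels' protocols. The values deposited are whole-number read counts for each gene symbol and library. The submitters' processing notes name GRCm38 as the build, and STAR 2.5.3a, fastp 0.23.4, edgeR 3.12.1 and featureCounts as tools. Not given in the sources used here are the annotation release and the strand and multimapping settings. Of low counts (1 to 4), 79.8% to 80.9% were even, so both mates of a pair may have been counted, and halved counts were an alternative. PCR copies are not independent, so precision is below what counts imply.

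Columns were matched to samples by name. Replicate libraries differed by more than counting error (chi-square over its degrees of freedom, 9.19 to 32.9). The test was edgeR 4.0.16 under R 4.3.3 (filterByExpr, TMM, quasi-likelihood F-test, no covariate), with Benjamini-Hochberg adjustment over 15741 genes; SE came from the log2 fold change and F. On simulated counts for this comparison (15547 genes), the test recovered 18% of 1.25-fold changes and 70%, 88% and 96% of those of 1.5-fold, 2-fold and 4-fold. Every simulated gene had the same spread, and 50 genes of any level were changed at each size. Alternatives were other scalings and filters, DESeq2 1.42.0, a block for the replicate number, voom in limma 3.58.1, halved counts, a stricter threshold, and each library left out. The exact permutation tests of ratios used scipy 1.17.1.

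Coordinates and lengths came from GENCODE M21 (GRCm38), where 47681 of 49492 symbols matched by symbol or RefSeq synonym. The named genes are Ep300, the members (all accounted for) and, from each partner list, the called gene of lowest p for each direction, or without a call the gene of lowest p. Members and lists were chosen with earlier results of these data known.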

Additional observations from a re-analysis of the deposited data

How the results depend on the processing

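The enzymes past the threshold numbered 5 under RLE and upper-quartile scaling, both other filters, halved counts, DESeq2 and limma-voom. They numbered 3 on library sizes alone, 0 at an adjusted p under 0.01 by edgeR (13 at an unadjusted p under 0.05), and 0 to 4 with 1 library left out: 2 and 1 without Ep300 siRNA replicates 1 and 3, and 4, 1 and 1 without control siRNA replicates 1, 2 and 3. Fits with 1 library left out also have fewer samples, and the cause of these losses was not tested. Over all genes, calls numbered 1721 without a low-count filter (30207 genes tested), 369 at an adjusted p under 0.01, and 490 to 1054 with 1 library left out. Of the 46 enzymes, 33 kept the sign of their log2 fold change in all 15 alternatives, and no enzyme besides the 5 passed in any. With 3 libraries a group the simulated recovery of 1.25-fold changes was 18%, for genes of any level and with the same spread for every gene. That share is not an estimate for these enzymes, whose median SE was 0.077 against 0.10 for all genes. Changes of the size seen here could still be missed.

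With the replicate number as a block, the same 5 enzymes passed and 1357 genes were called, against 1068. Deviations from the group mean correlated at 0.087, 0.02 and −0.047 between same-numbered libraries (numbers 1, 2 and 3). Between libraries of different numbers the correlations were −0.101 to 0.0881. Whether same-numbered samples were prepared together is not in the labels and was not tested further.

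Signs changed in some alternative for 13 enzymes, all near 0. On library sizes alone log2 fold changes were −0.0032 for Kmt2c, −0.024 for Dot1l, −0.00071 for Kmt2e, −0.012 for Kdm3b and −0.0063 for Prmt1. For Kmt2b it was 0.00016 under RLE scaling and 9.1e-06 by DESeq2. With 1 library left out the ranges were Kmt2b −0.0721 to 0.078, Kmt2c −0.0757 to 0.0955, Setd1a −0.00496 to 0.0813, Nsd1 −0.12 to 0.0793, Setd2 −0.0671 to 0.00312, Ehmt2 −0.0555 to 0.00201, Dot1l −0.0508 to 0.0797, Kmt2e −0.0531 to 0.095, Setd4 −0.088 to 0.00823, Setd5 −0.0137 to 0.13, Kdm3b −0.0138 to 0.0535, Prmt1 −0.0504 to 0.0946 and Prmt3 −0.0694 to 0.0131.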
